A study of Sus scrofa with 2 samples.

Results

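The genes described here are the receptor for gonadotropin-releasing hormone (GNRHR) and 4 genes of the signaling that runs from it inside the cell, namely the growth factor HBEGF, the MAP kinase kinase MAP2K1 and the calmodulin-dependent kinases CAMK2D and CAMK2G. They were found as the probes of the array whose transcript accession belongs to one of these genes in the RefSeq annotation of the pig. This gave 13 probes for 5 genes, out of 43597 probes measured on both arrays and 2459 genes that could be named in the same way. MAP2K1 had 5 probes, CAMK2D had 3, GNRHR and CAMK2G had 2 each and HBEGF had 1.

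Both groups were female pigs on day 15 of the estrous cycle, 10 months of age, with no treatment named, of which the conventional pigs were Yorkshire sows and the minipigs were of the Midget breed. Ovarian tissue from which the corpora lutea had been cut away was the source of the RNA, and each breed was hybridized to 1 single-color porcine Agilent array. The methods name 5 animals of each breed but leave unsaid whether an array received RNA from 1 animal or from several. With 1 array per breed no replicate check was possible and nothing was tested, so every difference below is between these 2 arrays, whose number limits the precision.

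The labels of the arrays are themselves in conflict. The scanner output of each array names a breed, whereas the table of log2 values deposited with it gives the same measurements under the other breed. Over the 5613 probes of that table that were printed once, the column labeled minipig followed the array labeled conventional pig with a largest departure of 7.46e-07 from a constant shift on the log2 scale, against 11.6 for the array labeled minipig. All values below carry the labels of the scanner output, and each direction is turned around under the labels of the table.

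An intensity is the fluorescence of a spot after correction for background by the scanner software. A log2 level is the log2 of this intensity minus the 75th percentile of its array, and a log2 difference is the level on the conventional pig array minus that on the minipig array. The share of probes well above background was 85.2% on the conventional pig array versus 88.1% on the minipig array. Probes printed several times gave the only technical replication, and 42 of them put the SD of a difference between single spots at 0.25 on the log2 scale. This SD comes from spots within each array, so it does not measure error between arrays. Each of the 13 probes was printed once, and none of their spots was saturated or marked as an outlier. The median log2 difference was -0.12 over all probes and 0.04 over the genes that could be named.

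Gonadotropin-releasing hormone (GnRH) is released from the hypothalamus and acts on the gonadotrope cells of the pituitary, where its receptor controls the output of LH and FSH. The receptor couples to G proteins of the Gq family, which raise calcium and activate protein kinase C. Calcium bound to calmodulin switches on CaM kinase II, while protein kinase C, partly by way of shed growth factors such as HB-EGF, feeds the RAF, MEK and ERK kinase cascade. In the ovary the same kinases also serve LH, FSH and growth factors, so they are not specific to GnRH.

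HBEGF, MAP2K1, CAMK2D and CAMK2G were higher by 1.52-fold to 1.89-fold on the conventional pig array, past the 1.5-fold that 23.7% of the named genes exceeded on that side, and the receptor itself differed by 1.09-fold in the other direction. A value was available for 12 probes, and 10 of them had the higher level on the conventional pig array, compared with 42.0% of all probes and 52.5% of the named genes. A difference of 1.5-fold or more toward the conventional pig array was found for 9 of them. The shares were 15.5% of all probes and 26.0% of the probes that could be named. Toward the minipig array 0 were past 1.5-fold, compared with 21.4% of all probes and 16.2% of the named genes. After normexp background correction the 9 became 5, against 11.2% of all probes and 18.9% of the named genes (23.7% of genes in the main processing). After median centring they became 10, against 20.4% of all probes and 29.5% of the named genes. The shares depended on the scaling, and the 42.0% was 52.3% after median centring. Only 1 of the 12 was past 2-fold, where 7.48% of all probes and 11.7% of the named genes lay on that side. The median log2 difference was 0.73 over the 12 probes and 0.64 over the 5 genes. These genes were chosen with earlier results of the same arrays known, so the counts describe them and are not a test. Probes of the same gene read the same transcript, so the 12 probes stand for 5 genes and are not independent. In tissue of mixed cells, fewer cells of a type and less RNA per cell cannot be told apart.

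**Figure D1:**
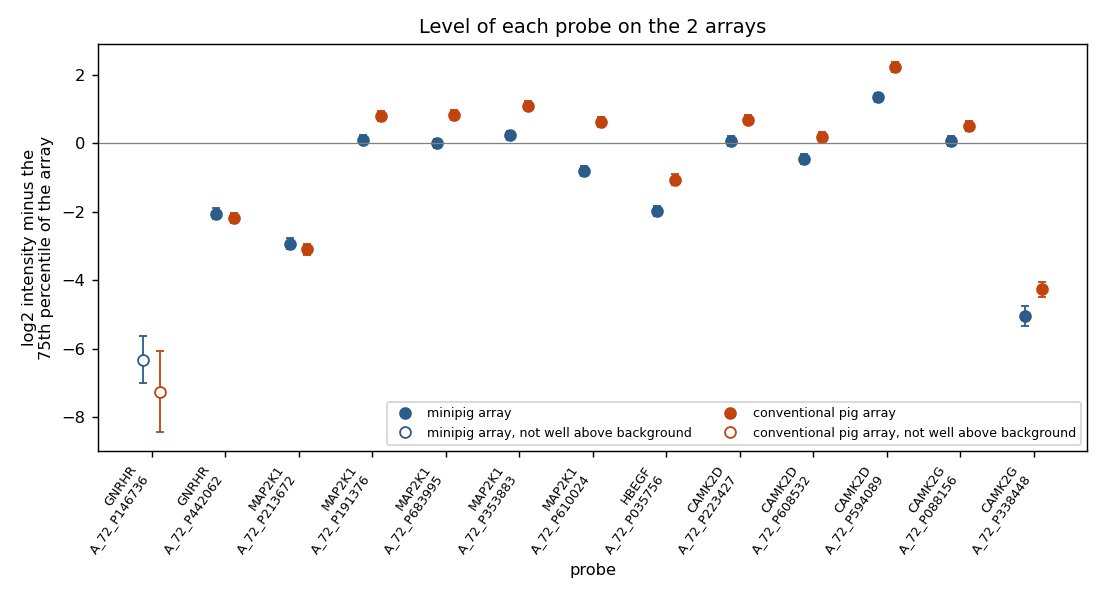
Log2 level (log2 intensity minus the 75th percentile of the array) of each of the 13 probes on the minipig array (blue) and the conventional pig array (orange); bars are the error that the scanner software models for the spot, and open circles mark spots not well above background. The probe A_72_P146736 of GNRHR lies lowest, at -7.25 and -6.32, and the 4 brighter probes of MAP2K1 lie above the minipig array on the conventional pig array.

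GNRHR differed between the arrays by less than the spread of repeated spots within an array. Its probe A_72_P442062 had an intensity of 113 on the conventional pig array versus 119 on the minipig array, or log2 levels of -2.18 and -2.05. The log2 difference was -0.12, with a modeled error of 0.21 for the pair of spots, and so lay inside both that error and the spread of repeated spots. The direction turned under other scalings, with 0.03 after median centring, after quantile normalization and after loess normalization. The second probe of the gene, A_72_P146736, had intensities of 3.37 and 6.17 and did not rise well above background on the arrays. Before correction its spot read 38 over a local background of 26 on the conventional pig array versus 42 over 20.5 on the minipig array. For comparison, the first probe read 161 and 168 before correction, over local backgrounds of 21 and 18.5. A signal well above background was therefore given by 1 of the 2 probes of the receptor, and no fold is given for the other. Whether this signal came from the receptor transcript was not tested.

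HBEGF encodes a growth factor that is made as a membrane protein, is shed by proteases and binds receptors of the ErbB family. Its only probe, A_72_P035756, had an intensity of 246 on the conventional pig array versus 126 on the minipig array, with log2 levels of -1.06 and -1.98. It was 1.89-fold higher on the conventional pig array (log2 difference 0.92, modeled error 0.21), which is 3.61 times the SD of a difference between single spots. It lay just short of 2-fold here and just past it after median centring (1.07), quantile normalization (1.05) and loess normalization (1.05). After normexp background correction the log2 difference was 0.64.

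MAP2K1 encodes MEK1, a kinase of the MAP kinase cascade that phosphorylates ERK kinases. Its 5 probes all match the same transcript, and all but 1 of them had the higher intensity on the conventional pig array. The probe A_72_P610024 had intensities of 794 on the conventional pig array versus 283 on the minipig array, and was 2.70-fold higher on the former (log2 difference 1.44, modeled error 0.20). This was the widest difference among the 12 probes with a value. The probe A_72_P353883, with intensities of 1100 and 580, had a log2 difference of 0.87. For A_72_P683995 the intensities were 907 and 495 and the log2 difference was 0.82. For A_72_P191376 they were 890 and 533, with a log2 difference of 0.69. These 4 differences were 2.70 to 5.65 times the SD of a difference between single spots, and all were past 1.5-fold, although A_72_P191376 fell short of it after normexp background correction (0.46). The probe A_72_P213672 went the other way, with intensities of 60.0 on the conventional pig array versus 65.0 on the minipig array and a log2 difference of -0.17, inside its modeled error of 0.23. Its spot read 90 before correction on the conventional pig array versus 85 on the minipig array, so the order of the arrays for this probe changed with the correction. After normexp background correction its log2 difference was 0.07.

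The median over the 5 probes of MAP2K1 was 0.82, or 1.77-fold higher on the conventional pig array, with an SD of 0.58 between probes. The probes spanned 1.60 on the log2 scale. Among the 65 genes with 5 probes well above background throughout, the median span was 0.50, the 95th percentile was 1.25, and 1.54% of them, which is MAP2K1 alone, spanned as much. Probes of opposite sign were found in 24.6% of these genes. The probe A_72_P610024 was the only 1 of the 13 that the deposited table lists, since that table holds only probes past 2-fold.

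**Figure D2:**
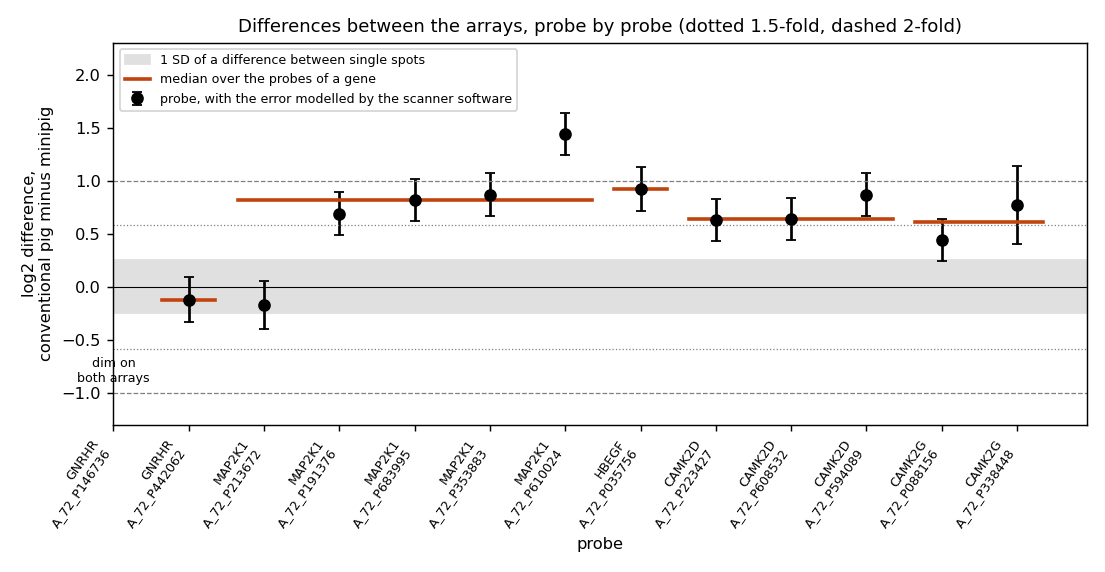
Log2 difference (conventional pig minus minipig) of each of the 13 probes, with the error modeled by the scanner software, the median over the probes of each gene (orange) and 1 SD of a difference between single spots (grey band). The single value of GNRHR, at -0.12, and 1 probe of MAP2K1, at -0.17, lie in the band, and the other 10 lie above it, up to 1.44.

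CaM kinase II is built from subunits encoded by several genes, of which CAMK2D (delta) and CAMK2G (gamma) are the ones found widely outside the nervous system. Both were higher on the conventional pig array in every probe. For CAMK2D the probe A_72_P594089 had intensities of 2380 on the conventional pig array versus 1250 on the minipig array, and a log2 difference of 0.87. The probe A_72_P608532 had intensities of 583 and 361, with a log2 difference of 0.64. The probe A_72_P223427 had 825 and 514, with a log2 difference of 0.63. The 3 probes had a span of 0.25 and an SD of 0.14, and 71.4% of the genes with 3 probes spanned at least as much. Their median was 0.64, or 1.55-fold, and it was 0.55 after normexp background correction, just under 1.5-fold.

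For CAMK2G the bright probe A_72_P088156 had intensities of 726 on the conventional pig array versus 516 on the minipig array, with a log2 difference of 0.44 and a modeled error of 0.20. The dim probe A_72_P338448 had 26.8 and 15.1, with a log2 difference of 0.77 and a modeled error of 0.37. The lowest intensities counted as well above background were 11.5 and 10.6 in the same order, so the dim probe stood close to the limit. Its spot read 61 before correction over a local background of 22.5 on the conventional pig array versus 54.5 over 20 on the minipig array. After normexp background correction its log2 difference was 0.05, while quantile normalization gave 1.11. The median of the gene was 0.61, or 1.52-fold, with normexp 0.30, and from the bright probe alone 0.44. The 2 genes are homologous, and binding of the transcripts of one by the probes of the other was not tested.

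**Figure D3:**
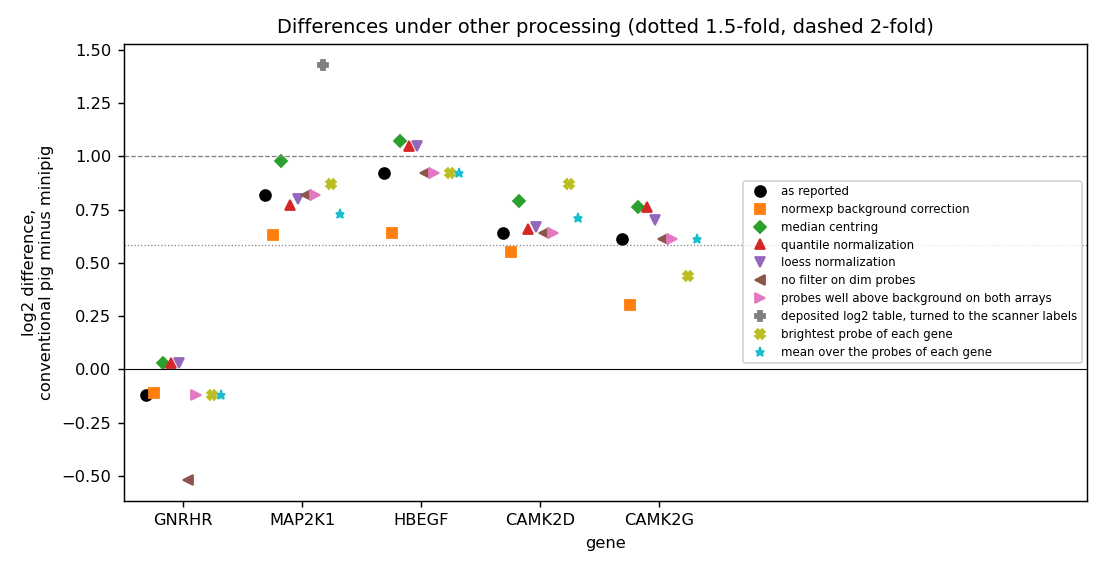
Log2 difference (conventional pig minus minipig) of the 5 genes as reported (black circles) and under each other processing (colored symbols). MAP2K1, HBEGF, CAMK2D and CAMK2G stay above 0 in all of them, with CAMK2G lowest at 0.30 after normexp, and GNRHR runs from -0.52 with dim probes kept to 0.03.

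The rest of the GnRH pathway had genes on both sides. Of 88 genes in a list of the pathway, 22 had a value. The others had no probe that could be named through its accession, so most of the list is not described. The median of the measured genes was -0.01 as a log2 difference, between -0.02 and 0.14 under other processing, with 11 genes higher on each array. Median centring turned this into 15 toward the conventional pig array versus 7 toward the minipig array. Without the 5 genes described above, 17 genes remained, with a median of -0.07. Of these 17, 3 were past 1.5-fold toward the conventional pig array and 4 toward the minipig array, compared with 23.7% and 16.2% of the 2363 named genes with a value. Past 2-fold were 0 genes of the list toward the conventional pig array and 1, JUN, toward the minipig array, compared with 11.7% and 7.96% of the named genes.

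At the start of the pathway, GNRH1, which encodes the hormone, was well above background with 1 of its 2 probes and on the minipig array only. There it was at least 1.83-fold higher than on the conventional pig array, a lower limit that uses the dimmest intensity still well above background. The limit depended on the processing, and its log2 difference of -0.87 became -0.49 after quantile normalization and -0.21 after normexp background correction, so no size is settled for this gene. The G protein subunit genes that pass on the signal had log2 differences of -0.44 for GNAQ, 0.19 for GNA11 and 0.00 for GNAS, the last from 15 probes. The calcineurin genes PPP3CA and PPP3CB, whose phosphatase also answers to calmodulin, had log2 differences of -0.01 and 0.19. None of these 5 genes of the G protein and calcium branch was past 1.5-fold. Of the named genes, 23.7% were past it toward the conventional pig array and 16.2% toward the minipig array. CAMK2D and CAMK2G were past it, but not after normexp background correction (0.55 and 0.30).

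Among growth factors of the EGF type, AREG and TGFA were further from zero than HBEGF. AREG, which encodes amphiregulin, an LH-induced growth factor of the follicle, had log2 levels of 3.27 on the conventional pig array versus 0.26 on the minipig array. This is an 8.06-fold difference, and the higher of its 2 probes was at 3.02. TGFA, which encodes transforming growth factor alpha, was 5.77-fold higher there from 1 probe (log2 levels 1.24 and -1.29). The probes of EGF itself ran from -0.50 to 0.33, with a median of 0.20. Of the shedding proteases, ADAM10 had a log2 difference of 1.07 (0.77 after normexp background correction) and ADAM17 of -0.08, and the latter changed sign after median centring (0.07). MMP2 (-0.61) and MMP14 (-0.58), metalloproteinases of the GnRH list, were higher on the minipig array. In a list of 15 genes for these ligands, their receptors and proteases, and also CD9 (0.39), 8 had a value, with a median of 0.65. Of these, 4 were past 1.5-fold toward the conventional pig array against 1 toward the minipig array, compared with 23.7% and 16.2% of the named genes.

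Of 25 genes in the list of MAP kinase cascades, 4 could be named and had a value, MAP2K1 among them, which is too few to describe the cascades. All 4 had the higher level on the conventional pig array, as did 52.5% of the named genes, with log2 differences from 0.29 to 0.82. MAPK12, a p38 kinase, was at 0.82, while CDC42, a small GTPase, at 0.30 was barely beyond the spread of repeated spots. GRB2, the adaptor that links growth factor receptors to RAS, had a log2 difference of 0.61 from 2 probes. The RAF kinase gene ARAF had a median of 0.87, but its 2 probes disagreed, at 0.17 and 1.57.

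JUN and FOS, early transcription factor genes that such cascades induce, were higher on the minipig array. JUN, from 1 probe, had log2 levels of 3.69 on the conventional pig array versus 7.44 on the minipig array and was 13.5-fold higher on the latter. FOS, also from 1 probe, was 3.95-fold higher on the minipig array, with log2 levels of -0.13 and 1.86. IER3, another early response gene measured by 1 probe, had the opposite direction, with a log2 difference of 1.13. MYC, measured by 3 probes that were all higher on the minipig array, was at -0.54. ATF4, measured by 6 probes, was at -0.14, and ran from -0.39 after quantile normalization to 0.01 after median centring. The target genes named here thus did not share a direction on these arrays. IER3 lay toward the conventional pig array and JUN, FOS and MYC toward the minipig array, while the sign of ATF4 depended on the scaling.

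**Figure D4:**
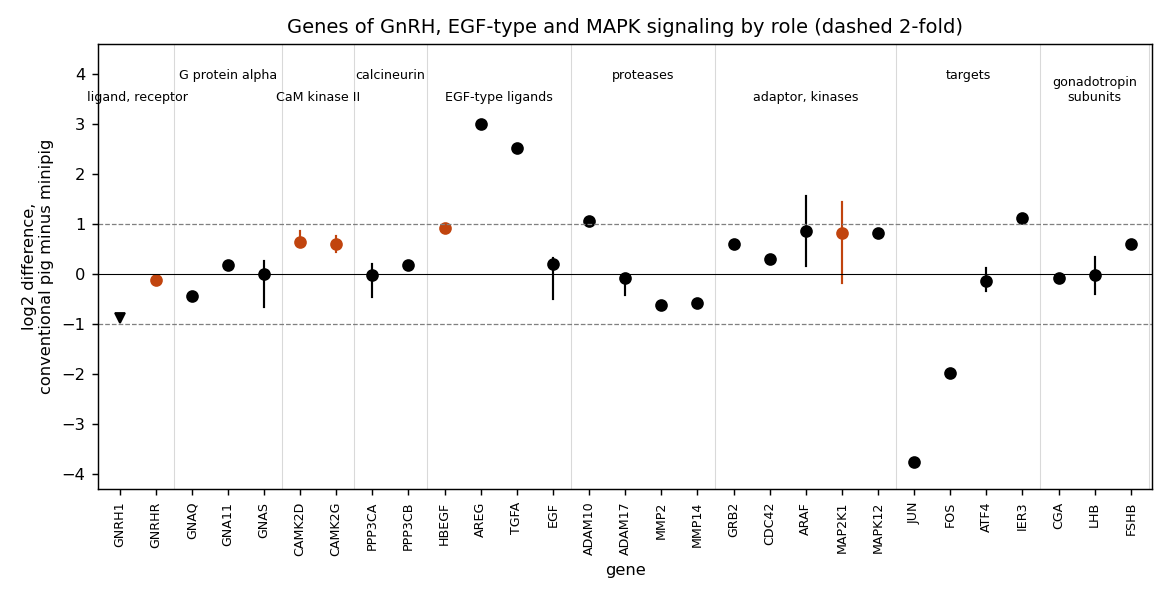
Log2 difference (conventional pig minus minipig) of signaling genes named in the text, without MYC, ordered by role. Points are medians over probes, lines span the probes of a gene and the triangle is a bound. Orange marks GNRHR, HBEGF, MAP2K1, CAMK2D and CAMK2G. AREG (3.01) and TGFA (2.53) lie highest, JUN (-3.76) and FOS (-1.98) lowest, and the genes in orange lie between -0.12 and 0.92.

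The 3 gonadotropin subunit genes, whose transcription GnRH controls in the pituitary, were dim to moderate in this tissue. CGA had log2 levels of -4.15 on the conventional pig array versus -4.08 on the minipig array, and FSHB had -4.43 and -5.03. The log2 difference of FSHB was 0.60, but -0.01 after normexp background correction. The 2 probes of LHB gave -0.40 and 0.35. Over all 6 markers of the gonadotrope, each with a value, the median log2 difference was 0.00 and the summed log2 level was 0.36 on the conventional pig array versus 0.10 on the minipig array. A summed level adds the linear levels of the genes of a list, each at the median of its probes. Here LHB, NR5A1 and CHGB made up most of the sum on each array, and the 3 probes of NR5A1 ran from -0.72 to 0.75 as log2 differences. GNRHR entered with its dim probe included and added little, at log2 levels of -4.71 and -4.19. The sums are not read as a level of gonadotrope cells.

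Markers of ovarian cell types were present and differed between the arrays. Of 7 luteal markers, 6 were measured and 5 had the higher level on the conventional pig array, with a median log2 difference of 2.55 and summed levels of 7.95 and 5.33 on the conventional pig and minipig arrays. LHCGR was the exception, at -0.62. The others were led by HSD3B1 (3.11) and STAR (3.07), enzymes and carriers of steroid synthesis, although the corpora lutea had been removed. Granulosa markers went the other way, with 6 of the 7 measured of 10 higher on the minipig array, a median of -1.03, and FSHR at -3.63. Their summed levels were 4.05 and 4.85. FST among them, at -0.08, lay inside the spread of repeated spots. CYP19A1, the exception at 0.09, did so only as the median of probes at -0.34 and 0.52. The INHBA probes disagreed too (-3.91 and 0.37). The 6 oocyte markers measured, of 10, were all higher on the minipig array (median -1.13, summed levels 0.55 and 1.76). BMP15, at -0.18, lay inside that spread and was at 0.01 after normexp background correction. The ZP2 probes disagreed (-1.96 and 0.46). For comparison, 52.5% of the named genes were higher on the conventional pig array. Theca markers, 5 of 6 with a value, had a median of -0.62 and summed levels of 7.63 and 6.72. Among them STAR (3.07), CYP11A1 (2.63) and LHCGR (-0.62) are also luteal markers. INSL3 (-3.76) and CYP17A1 (-1.74), which are not, were higher on the minipig array. Most of the sum came from STAR on the conventional pig array (log2 level 7.19) and from INSL3 on the minipig array (6.17). Endothelial markers (2 of 6, median 0.46, summed levels 1.34 and 0.89), smooth muscle markers (3 of 5, median -1.32, summed levels 6.22 and 6.25) and leukocyte markers (3 of 6, median 0.22, summed levels 1.43 and 1.36) were measured too thinly to stand for their cells. Of all these markers on the array, only CD4 was not well above background on either. The part of luteal, granulosa and other cells in the differences of HBEGF, MAP2K1, CAMK2D and CAMK2G was not tested.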

How the data were processed

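The single-color (Cy3) arrays were run by a commercial provider for the authors, who deposited the output of Agilent Feature Extraction 10.7.3.1, named in the processing notes: a processed intensity per spot, corrected for background and spatial trend but not normalized between arrays, with an error from its own model. The authors also deposited log2 values of 5617 probes past 2-fold, normalized with GeneSpring by a method not given in the sources used here. Both arrays lay on 1 slide.

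Control spots and outlier spots (10 on the conventional pig array, 5 on the minipig array) were left out, repeated spots were averaged as log2, and the 75th percentile of each array was subtracted. For a gene, the median of its probes was taken. A probe well above background on 1 array gives a bound against the lowest such intensity of the other array, and 4695 probes on neither array give none. Accessions were matched without versions to RefSeq (Sscrofa11.1), which named 5577 probes, or 12.8%. No genome build is named for the array, and no coordinates or sequences were used. No p-value was computed.

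The 5 genes and all gene lists were chosen with earlier results of these data known. The genes named are these 5, those past 1.5-fold in each list (at most 3 each way), and the RAF, MEK, CaM kinase II and EGF-type genes whatever their value; others were named after their values were seen. The value of 1 gene that the rule names is not reported here. Alternatives were normexp (offset 50, on median spot signals), median centring, quantile and loess normalization (span 0.3), no filter, only probes bright on both arrays, the deposited table, the brightest probe and, added later, the mean over probes. Functions were tested on simulated data. Software was Python 3.11.15, numpy 2.4.6, pandas 2.3.3, statsmodels 0.14.6, matplotlib 3.10.9, R 4.3.3 and limma 3.58.1.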

Additional observations from a re-analysis of the deposited data

How the results depend on the processing

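Under the alternatives run, MAP2K1, HBEGF, CAMK2D and CAMK2G stayed higher on the conventional pig array, with log2 differences from 0.63 to 1.43, 0.64 to 1.07, 0.55 to 0.87 and 0.30 to 0.76. The extremes beyond the spread of repeated spots were 1.43 for MAP2K1 in the deposited table, which lists 1 of its 5 probes, and, under normexp, 0.64 for HBEGF and 0.30 for CAMK2G. GNRHR changed sign under median centring, quantile and loess normalization (0.03 in each), as did its single measured probe, and was at -0.52 with dim probes kept. The MAP2K1 probe A_72_P213672 changed sign under normexp (0.07), quantile (0.05) and loess normalization (0.03). The median of the GnRH list changed sign under median centring and quantile normalization (0.14 each), loess (0.11), with only probes bright on both arrays (0.00) and with the brightest probe (0.06). Relative to the scaling used, median centring moved the median of all probes by 0.15, quantile normalization by 0.11 and loess by 0.10. The 9 probes of the 5 genes past 1.5-fold became 5 under normexp and 9 or 10 under the other scalings and filters. Over all probes, 6044 were past 1.5-fold toward the conventional pig array and 8325 toward the minipig array, against 7902 and 5943 after median centring and 4364 and 4268 under normexp. At 2-fold the 3475 toward the minipig array became 1411 under normexp. Of 73 values of single probes of the 5 genes, 64 moved by less than the SD of repeated spots and kept their sign. Part of this count was fixed in advance. The changes of filter cannot move a probe bright on both arrays, and median centring shifts every probe by the same amount. The cause of these changes was not tested. The mean over probes and the count of probes past 1.5-fold were added after seeing the data. Probes named through a gene name column could not be added, because the scanner files used here hold none. No paired analysis was possible because each breed has 1 array. Dim probes are limited by signal over background, which bears on GNRHR and on 1 probe each of MAP2K1 and CAMK2G.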
